A study of Mus musculus with 18 samples.

Results

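The mesothelial marker genes Wt1, Upk3b, Lrrn4, Upk1b, Msln, Krt19 and Aldh1a1 were examined in RNA-Seq libraries of whole embryonic mouse lungs. They were taken by gene symbol, and all 7 are among the 23420 genes listed in each of 3 deposited tables. Each table holds 3 control and 3 mutant libraries, 18 in all. The first compares lungs lacking both Vangl1 and Vangl2 (Vangl1-/-; Vangl2-/-) at E12.5 (embryonic day) with controls that also lacked Vangl1 (Vangl1-/-), so that Vangl2 is the targeted gene that differs in genotype. The second compares Wnt5af/f; Dermo1Cre with Wnt5af/+; Dermo1Cre lungs at E12.5, and the third Wnt5af/f; Sox9Cre with Wnt5af/+; Sox9Cre lungs at E13.5. Controls of these last experiments carried the same Cre and 1 floxed Wnt5a allele. Per the study's methods, Vangl1 was lost through a gene trap and Vangl2 through a ubiquitous Sox2-Cre, Dermo1-Cre removes Wnt5a from the mesenchyme, and Sox9-Cre acts in the epithelium after early branching has begun. The experiments are called Vangl, Dermo1 and Sox9 here. The sources used here do not say how many embryos went into a library, so that p-values measure the spread between these libraries.

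The mesothelium is the single layer of flat epithelial cells that covers the lung and lines the body cavities. In the embryo it sends Fgf9 and retinoic acid to the mesenchyme beneath, which helps to set growth and branching, and some of its cells lose their epithelial contacts and enter the mesenchyme. Wt1, a zinc finger transcription factor, marks this layer on many organs, including the epicardium of the heart. Upk3b and Upk1b encode uroplakins, membrane proteins first known from the bladder lining, Lrrn4 a leucine-rich repeat membrane protein, and Msln the cell surface protein mesothelin. Krt19 is a keratin of simple epithelia and Aldh1a1 an enzyme that makes retinoic acid, and airway epithelium can make both.

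Between 15945393 and 19814346 reads per library lay on genes, as recovered from the deposited values. Values are normalized counts, that is, reads per gene scaled by the authors with 1 size factor for each library. These factors lay between 0.952 and 1.07, so that a normalized count is close to 1 read. A gene was tested with limma on log2(normalized count + 1) if at least 3 of the 6 libraries of its table held 10 normalized counts or more, and fold changes are on that scale, as mutant minus control. Adjusted p-values are Benjamini-Hochberg values over all genes tested, with a threshold of 0.05. Vangl2 fell from 339 ± 64.9 (SD, n = 3) in Vangl controls to 85.3 ± 5.01 (SD, n = 3) in mutants, with a limma adjusted p of 0.0318. Vangl1 reads were present in both Vangl groups, at 165 ± 52.8 (SD, n = 3) in controls and 252 ± 19.5 (SD, n = 3) in mutants, and the groups did not overlap (log2 fold change 0.65 ± 0.227 SE, limma adjusted p = 0.233). In the groups of the other experiments Vangl1 means lay between 448 and 484. Wnt5a was at 464 ± 30.8 (SD, n = 3) in Dermo1 controls and 327 ± 103 (SD, n = 3) in mutants, and mutant replicate 2 was within the control range at 436. In Sox9 lungs Wnt5a was at 451 ± 23.5 (SD, n = 3) and 417 ± 48.0 (SD, n = 3). These Wnt5a differences did not pass the threshold (limma adjusted p = 0.406 and 1). Vangl control replicate 2 stood with the mutants on the first principal component of its table, away from the other Vangl controls, and results of that experiment are given with and without it.

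Upk3b was the most abundant member. In CPM per kilobase of exon, where CPM, the usual count scaled by depth, brings the reads on genes to the same sum in each library, its group means lay between 22.1 and 32.5, those of Krt19 between 17.02 and 19.9, and those of Lrrn4 between 5.79 and 11.4. Wt1 lay between 4.67 and 7.50, Upk1b between 3.48 and 10.3, and Aldh1a1 between 2.20 and 3.75. Msln was close to the limit of detection, with group means between 0.0395 and 0.535 on the same scale. The 7 markers thus range from abundant genes to one hardly detected. In GRCm38 (GENCODE M21) Upk3b is a protein-coding gene at chr5:136038496-136046487 on the plus strand and Wt1 lies at chr2:105126529-105173616 on the plus strand. Lrrn4 lies at chr2:132868305-132880891, Upk1b at chr16:38773184-38800328, Msln at chr17:25748613-25754378 and Krt19 at chr11:100140810-100148665, all on the minus strand. Aldh1a1, at chr19:20492715-20643465 on the plus strand, overlaps the antisense transcript C730002L08Rik over 59616 bases. That transcript was at 3.97 normalized counts or less in every library. The near paralog Aldh1a7 was more abundant than Aldh1a1, between 639 and 1702 normalized counts, and reads shared between these paralogs could have been assigned to either.

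**Figure D1:**
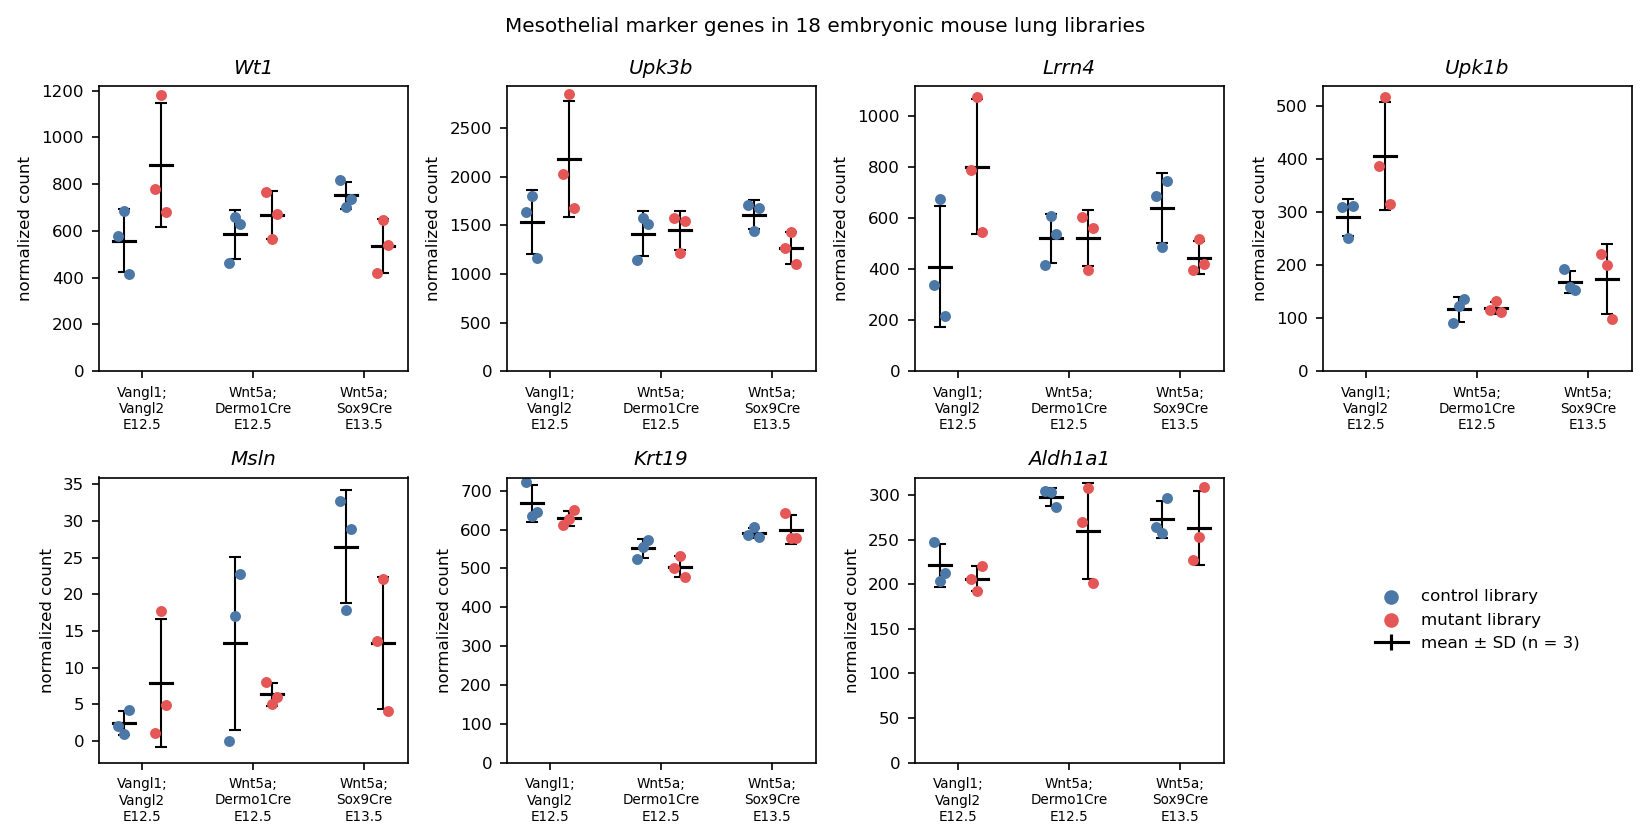
Normalized counts (vertical axes, linear) of the 7 mesothelial marker genes in control (blue) and mutant (red) libraries of the Vangl, Dermo1 and Sox9 experiments, with bars for mean ± SD of 3 libraries. Wt1, Upk3b and Lrrn4 have their highest value in Vangl mutant replicate 2, while Krt19 lies between 478 and 722 in all 18 libraries.

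The first comparison addresses the loss of Vangl2 in lungs that already lacked Vangl1. Wt1, Upk3b, Lrrn4 and Upk1b had higher means in the mutants and Krt19 and Aldh1a1 did not, and none passed the adjusted threshold. Lrrn4 was at 340, 674 and 218 normalized counts in the Vangl1-/- controls and at 789, 1074 and 547 in the Vangl1-/-; Vangl2-/- lungs. Control replicate 2 lay above the lowest mutant, so that the groups overlapped. The log2 fold change of Lrrn4 was 1.07 ± 0.397 (SE), a fold of 2.10 with a 95% interval from 1.11 to 3.96 (limma adjusted p = 0.233). Since the lungs were sequenced whole, more cells of a type and more RNA per cell cannot be told apart. Wt1 was at 578, 684 and 414 in controls and at 779, 1182 and 680 in mutants. Again only control replicate 2 reached into the mutant range. Its log2 fold change was 0.64 ± 0.241 (SE, limma adjusted p = 0.233).

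Upk3b was at 1634, 1800 and 1163 in Vangl controls and at 2025, 2846 and 1676 in mutants. The order of the libraries was that of Wt1, with control replicate 3 lowest and mutant replicate 2 highest. Its log2 fold change was 0.50 ± 0.221 (SE, limma adjusted p = 0.247). Upk1b was at 310, 251 and 312 in controls and at 387, 517 and 316 in mutants. It was the single member whose groups did not overlap, control replicate 3 being just below mutant replicate 3, and its control replicate 2 was the lowest library rather than the highest. Its log2 fold change was 0.46 ± 0.19 (SE, limma adjusted p = 0.239).

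The remaining members differed little. Krt19 was at 722, 635 and 646 in Vangl controls and at 611, 627 and 650 in mutants, and Aldh1a1 at 248, 203 and 212 in controls and at 206, 192 and 221 in mutants. Both genes overlapped between groups, with log2 fold changes of -0.08 (95% interval -0.31 to 0.14) and -0.10 (-0.40 to 0.21). Msln held 2.07, 0.932 and 4.20 normalized counts in controls and 1.01, 17.7 and 4.92 in mutants, and was not tested. Only mutant replicate 2, the library highest in Wt1, Upk3b, Lrrn4 and Upk1b, exceeded 10.

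Of 6 members tested in the Vangl experiment, 3 had an unadjusted p under 0.05, all higher in mutants (Lrrn4, Wt1 and Upk1b), where 20.5% of all genes tested had such a p in either direction and 12.0% in that direction. At the adjusted threshold 0 members passed, and 0.00699% of genes did. For groups that do not overlap the count was 1 of 6, higher in mutants, beside 22.3% of all genes tested and 13.6% in that direction. The median log2 fold change of the 6 members was 0.48 and that of all genes tested -0.01. Without control replicate 2, limma called 3 of the 6 members at the adjusted threshold, and it called 6183 of all 14303 genes tested. The members were Lrrn4 with a log2 fold change of 1.505 (limma adjusted p = 0.0011), Wt1 with 0.81 (0.0117) and Upk3b with 0.63 (0.0272). Upk1b was then at 0.36 and no longer had an unadjusted p under 0.05. Without control replicate 3, Lrrn4 was at 0.69, Wt1 at 0.44 and Upk3b at 0.31, and Upk1b was the 1 member with an unadjusted p under 0.05. Without mutant replicate 2, no member had an unadjusted p under 0.05, and Lrrn4 was at 0.83, Wt1 at 0.41, Upk3b at 0.29 and Upk1b at 0.27 (limma adjusted p of 0.43 or more). Without control replicate 1, none had one either. The summed level of the lung mesenchyme markers was highest in control replicate 2. It was 102204 normalized counts there, 62885 and 49563 in the other controls and between 77576 and 97200 in mutants. Most of it came from the collagens Col1a1 and Col3a1, with control means of 20483 and 31926. Of the 10 markers 8 were higher and 2 lower in mutants, and none was at 0 in all libraries. At an unadjusted p under 0.05, 3 were higher and 1 lower, Tcf21 (-0.33), beside 12.0% and 8.56% of all genes. The sum of 10 cardiomyocyte markers was 7850 in mutant replicate 2 and between 614 and 5352 in the other Vangl libraries. All 7 neuron markers had higher means in the mutants, 2 with an unadjusted p under 0.05, with a median log2 fold change of 0.56 and a sum of 437 to 750 normalized counts in controls and 649 to 1111 in mutants. The part of these cells in the result was not tested.

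**Figure D2:**
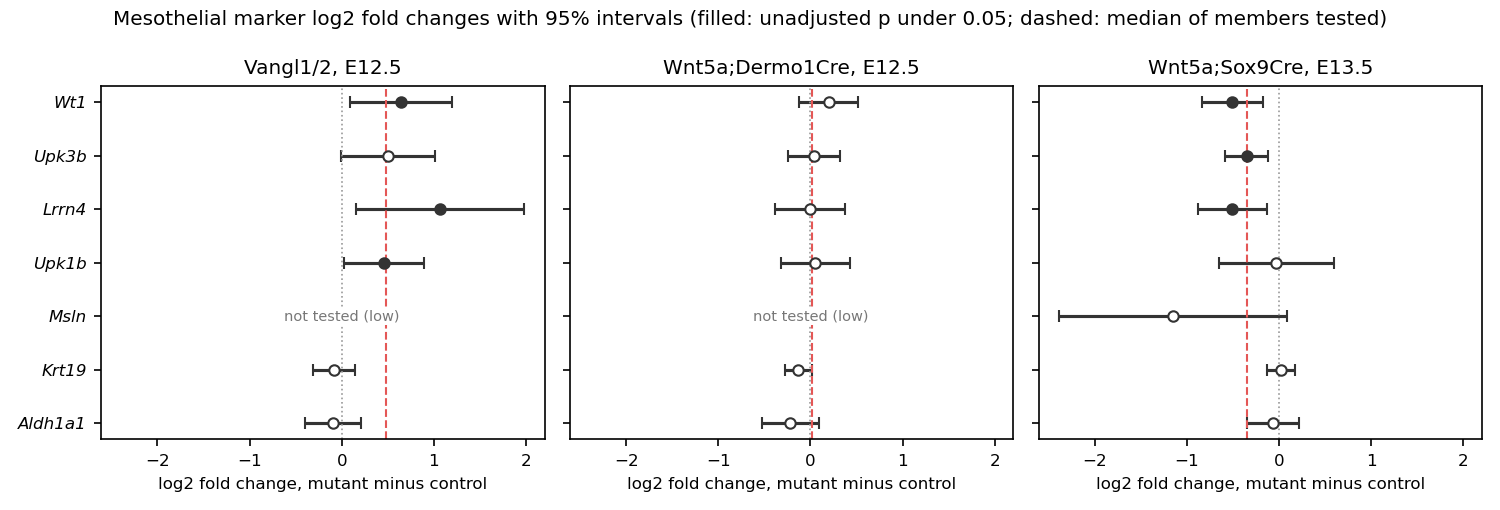
Log2 fold change (horizontal axis, mutant minus control) of each mesothelial marker in the Vangl, Dermo1 and Sox9 experiments, with 95% intervals from limma. Filled points have an unadjusted p under 0.05, and the dashed line is the median of the members tested, at 0.48, 0.02 and -0.35.

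The second comparison addresses the loss of mesenchymal Wnt5a. Here the members lay close to their controls. Wt1 was at 465, 659 and 630 normalized counts in Wnt5af/+; Dermo1Cre lungs and at 768, 564 and 672 in Wnt5af/f; Dermo1Cre lungs, with a log2 fold change of 0.20 (95% interval -0.12 to 0.52). Upk3b was at 1148, 1579 and 1510 in controls and at 1579, 1219 and 1545 in mutants, with a log2 fold change of 0.04 (-0.25 to 0.33). Lrrn4 was at 416, 607 and 540 in controls and at 606, 398 and 563 in mutants, and its log2 fold change was -0.00 (-0.38 to 0.38). Control replicate 1 and mutant replicate 2 were the lowest libraries of their groups for all of these genes. Upk1b was at 90.2, 123 and 137 in controls and at 115, 133 and 112 in mutants (0.06, interval -0.32 to 0.43).

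Krt19 was at 525, 556 and 574 in Dermo1 controls and at 502, 532 and 478 in mutants, all mutants below the control mean. Its log2 fold change was -0.13 (95% interval -0.28 to 0.02, limma adjusted p = 0.53). Aldh1a1 was at 305, 303 and 286 in controls and at 270, 308 and 202 in mutants, with a log2 fold change of -0.22 (-0.53 to 0.09). Msln was not tested, with 0, 17.1 and 22.8 normalized counts in controls and 8.07, 4.96 and 5.99 in mutants. The library with none, control replicate 1, held 0 Msln reads of 16102180 on genes, which allows a level of up to 0.186 CPM by counting error alone. At an unadjusted p under 0.05, 0 of 6 members passed, while 10.2% of all genes tested did. The groups overlapped for each of the 6, beside 15.6% of genes whose groups did not overlap, and 0.014% of genes passed the adjusted threshold. The median log2 fold change was 0.02 for the members and 0.00 for all genes tested. Leaving out mutant replicate 2, whose Wnt5a was in the control range, brought Wt1 to 0.31, Krt19 to -0.17 and Aldh1a1 to -0.35. Each had an unadjusted p under 0.05 and a limma adjusted p of 0.302 or more. In that fit 1899 of 14277 genes had an unadjusted p under 0.05. Over all 6 libraries, all 7 neuron markers were higher in mutants, 7 at that threshold (5.42% of all genes), with a median of 1.83. All 6 smooth muscle markers were lower, 5 at that threshold. Of 12 lung epithelium markers 11 were lower, 6 at that threshold, and 1 higher (4.76% of all genes were lower). The part of these cells in the result was not tested.

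The third comparison addresses the loss of epithelial Wnt5a. Wt1, Upk3b, Lrrn4 and Msln had lower means in the mutants, and no member passed the adjusted threshold. Wt1 was at 817, 704 and 735 normalized counts in Wnt5af/+; Sox9Cre lungs and at 421, 649 and 538 in Wnt5af/f; Sox9Cre lungs. All mutants lay below all controls. The log2 fold change was -0.51 ± 0.143 (SE), a fold of 0.704 with a 95% interval from 0.561 to 0.883 (limma adjusted p = 1). Upk3b was at 1709, 1443 and 1681 in controls and at 1268, 1430 and 1105 in mutants. Its groups did not overlap either, though control replicate 2 and mutant replicate 2 were close. The log2 fold change was -0.35 ± 0.102 (SE, limma adjusted p = 1). Lrrn4 was at 689, 486 and 747 in controls and at 398, 520 and 420 in mutants, so that mutant replicate 2 reached into the control range. Its log2 fold change was -0.51 ± 0.165 (SE, limma adjusted p = 1).

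Msln, at its most abundant in these E13.5 lungs, held 32.7, 17.9 and 28.9 normalized counts in Sox9 controls and 13.7, 22.1 and 4.10 in mutants. The groups overlapped, and its log2 fold change of -1.16 had an interval from -2.39 to 0.08 (limma adjusted p = 1). With each library left out it lay between -1.63 and -0.54, the latter without mutant replicate 3. Upk1b was at 193, 159 and 154 in controls and at 222, 201 and 99.4 in mutants, and its mutants lay on both sides of the controls (-0.03, interval -0.66 to 0.60). Krt19 was at 587, 606 and 581 in controls and at 642, 577 and 579 in mutants, and its log2 fold change was 0.02 (-0.14 to 0.17). Aldh1a1 was at 264, 258 and 296 in controls and at 227, 252 and 309 in mutants (-0.06, interval -0.34 to 0.22). For these 3 genes the difference of the means was smaller than the SD of either group.

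Among all genes this was the experiment with the fewest low p-values. Of 7 members tested, 3 had an unadjusted p under 0.05, all lower in mutants (Wt1, Upk3b and Lrrn4), beside 3.9% of genes tested in either direction and 2.81% in that direction. The groups of 2 of the 7 did not overlap, both lower in mutants, beside 8.78% of all genes and 4.36% in that direction. At the adjusted threshold 0.0% of genes passed. The median log2 fold change was -0.35 for the members and 0.00 for all genes. Wt1 and Upk3b kept an unadjusted p under 0.05 when each library was left out in turn, with log2 fold changes between -0.66 and -0.34 and between -0.44 and -0.25. Lrrn4 did so in 4 of 6 cases. Markers of heart muscle moved in the same direction. All 10 cardiomyocyte markers were lower in the mutants (8 with an unadjusted p under 0.05), none was at 0 in all libraries, and their sum was 5422, 8664 and 18995 normalized counts in controls and 5983, 2900 and 1037 in mutants. Heart carries an epicardium that makes Wt1. In the Dermo1 experiment all 10 cardiomyocyte markers had lower means as well, 0 with an unadjusted p under 0.05, with a median of -1.28. Their sum there was 1359, 6773 and 20839 in controls and 2967, 4418 and 895 in mutants. Wt1, Upk3b and Lrrn4 had log2 fold changes of 0.20, 0.04 and -0.002 in that experiment. Markers of other cell types were lower in Sox9 mutants too. All 7 neuron markers had lower means, 1 with an unadjusted p under 0.05, with a median log2 fold change of -0.94 and a sum of 1184 to 1647 normalized counts in controls and of 1679, 495 and 551 in mutants. All 7 macrophage markers tested had lower means, 1 with an unadjusted p under 0.05, with a median of -0.24 and a sum of 1846 to 2243 in controls and 1585 to 1872 in mutants. No marker of either list was at 0 in all libraries. The part of these tissues in the result was not tested.

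The effects in the experiments were then set against each other in a limma fit over all 18 libraries. The mutant effect on Wt1 was higher by 1.15 ± 0.303 (SE, log2) in the Vangl than in the Sox9 experiment (limma adjusted p = 0.157). The difference was 0.85 ± 0.265 (SE) for Upk3b (limma adjusted p = 0.157) and 1.58 ± 0.451 (SE) for Lrrn4 (limma adjusted p = 0.157). All Vangl mutants lay above their control mean and all Sox9 mutants below theirs for these 3 genes. At an unadjusted p under 0.05 these 3 passed, as 25.0% of all genes did, and 0.0143% of genes passed the adjusted threshold. Without Vangl control replicate 2 all 3 passed it in limma (adjusted p = 0.00235 for Wt1, 0.00754 for Upk3b and 0.000355 for Lrrn4). That fit called 5500 of 13979 genes. For Upk1b, Krt19 and Aldh1a1 the same difference was 0.49 ± 0.349 (SE), -0.10 ± 0.101 and -0.04 ± 0.198, and none had an unadjusted p under 0.05. Between the Dermo1 and Sox9 experiments Wt1 differed by 0.70 ± 0.303 (SE, limma adjusted p = 1), beside 2.63% of genes at that threshold. Between the Vangl and Dermo1 experiments Lrrn4 differed by 1.07 ± 0.451 (SE, limma adjusted p = 0.262), beside 17.3% of genes. Stage and genotype cannot be told apart in any contrast with the Sox9 experiment.

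Across the 6 groups the levels of most members overlapped. In CPM, each group of Wt1, Upk3b, Lrrn4 and Krt19 overlapped with its neighbour in the order of means. Aldh1a1 was lower in both Vangl groups, at 11.4 ± 1.09 and 10.9 ± 0.818 (SD, n = 3), than in the other 4 groups, whose means lay between 16.1 and 18.5, and no library of the former reached the latter. Upk1b was lowest in the Dermo1 groups, at 7.27 ± 1.53 and 7.51 ± 0.749 (SD, n = 3), between 10.4 and 10.8 in the means of the Sox9 groups, whose mutants overlapped with those and with Vangl controls, and highest in the Vangl groups, at 14.9 ± 1.16 in controls and 21.4 ± 5.34 in mutants. The tables were normalized separately, and experiment, sequencing and strain cannot be told apart in these levels.

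To see which members vary together, each library's log2 value was taken as its deviation from the mean of its own group, so that genotype, stage and table drop out. Wt1, Upk3b and Lrrn4 varied together from library to library, and no pair with another member passed the threshold. Over the 18 libraries, Wt1 and Upk3b had a Pearson r of 0.896 (Spearman rho 0.928), Upk3b and Lrrn4 0.884 (0.864), and Wt1 and Lrrn4 0.856 (0.843). By exact permutation of libraries within groups, two-sided and adjusted over 15 pairs, the p-values of r were 0.00675, 0.00177 and 0.00177, and those of rho 0.00241, 0.00241 and 0.00279. Without the 2 libraries farthest from the median of the first gene named in each result, r was 0.838 for Wt1 and Upk3b, 0.826 for Upk3b and Lrrn4 and 0.809 for Wt1 and Lrrn4. Within the experiments, r of Wt1 and Upk3b was 0.992 in Vangl, 0.973 in Dermo1 and 0.455 in Sox9 libraries, and that of Upk3b and Lrrn4 was 0.887, 0.977 and 0.791. For Wt1 and Lrrn4 it was 0.904, 0.957 and 0.621. The pairs were noticed in these libraries, which also share their scaling.

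Of the 15 pairs, these were the 3 with an adjusted p under 0.05, and the median r over all 15 was 0.115. Upk1b reached r = 0.462 with its fellow uroplakin Upk3b (permutation p = 0.0938, rho 0.358, p = 0.219), 0.211 with Wt1 and 0.115 with Lrrn4. Krt19 had r between -0.32 and 0.427 with the others, and Aldh1a1 between -0.383 and 0.268. The spread within groups also set the members apart. The SD of log2 values within groups was 0.072 for Krt19, smaller than in all but 7.6% of genes, and 0.455 for Lrrn4, larger than in 94.0% of genes. Wt1, Upk3b, Upk1b and Aldh1a1 had SDs of 0.301, 0.263, 0.341 and 0.179, and the median gene 0.147.

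**Figure D3:**
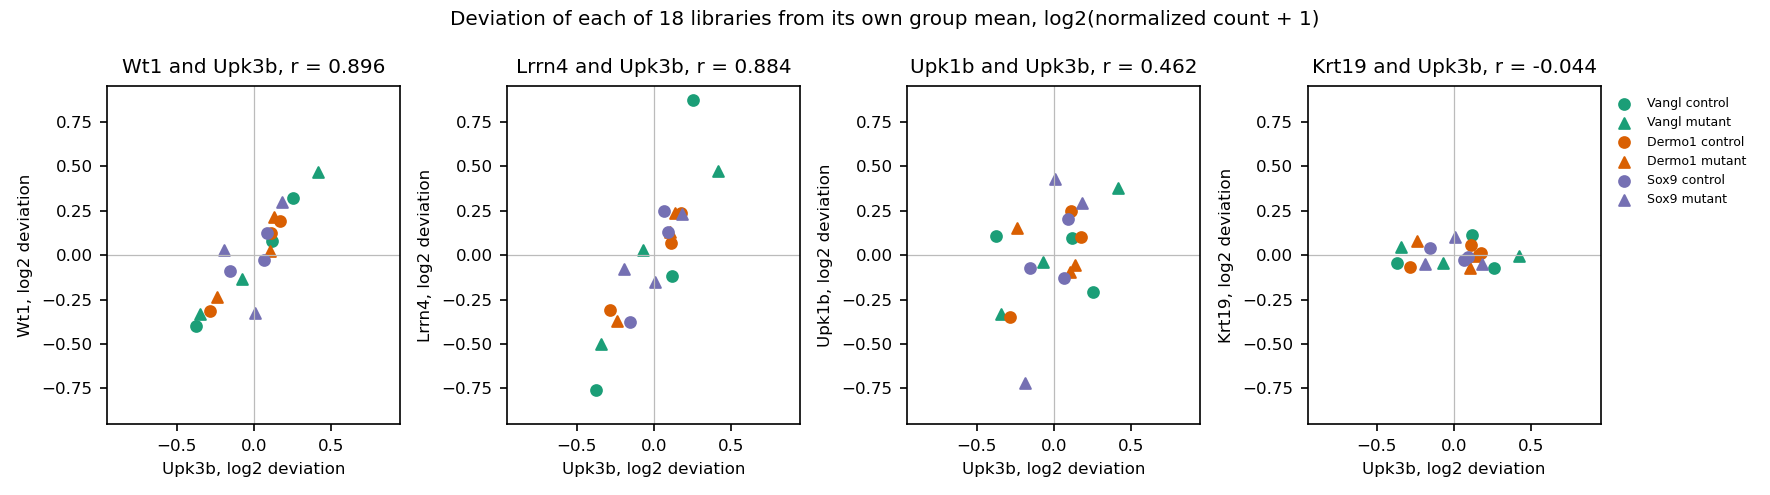
Deviation of each of 18 libraries from the mean of its own group, in log2(normalized count + 1), for Wt1, Lrrn4, Upk1b and Krt19 (vertical axes) against Upk3b (horizontal axes). Points of Wt1 and Lrrn4 follow a rising line (r = 0.896 and 0.884), those of Upk1b scatter (0.462) and those of Krt19 stay flat (-0.044).

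The members were also set against gene lists of the cell types of the lung. With the mean deviation of 13 other mesothelial genes, Upk3b had r = 0.93 (rho 0.882), Wt1 0.832 (0.839) and Lrrn4 0.769 (0.769), with exact permutation p-values of r adjusted over 36 relations of 0.00772, 0.0185 and 0.0147. Without the 2 libraries farthest out on the list, r was 0.901, 0.754 and 0.752. Upk1b had r = 0.549 with the list (adjusted permutation p = 0.113), Krt19 0.044 and Aldh1a1 -0.418 (adjusted permutation p = 0.156). With 12 markers of the lung epithelium the same 3 genes went the other way, Lrrn4 with r = -0.812 (rho -0.88, adjusted permutation p = 0.0147, and -0.827 without the 2 libraries farthest out), Upk3b with -0.757 and Wt1 with -0.738 (adjusted permutation p = 0.0762 and 0.0545, and -0.584 and -0.598 without the 2 libraries farthest out). With 10 markers of the lung mesenchyme Lrrn4 had r = 0.756 (rho 0.513), Wt1 0.67 (0.676) and Upk3b 0.528 (0.457), and none passed the threshold (adjusted permutation p of r = 0.156, 0.109 and 0.32). Without the 2 libraries farthest out, these were 0.355, 0.594 and 0.279. Krt19 had r = 0.571 with the other simple epithelial keratins and 0.406 with lung epithelium, neither past the threshold (adjusted permutation p = 0.252 and 0.288). Values are normalized counts, scaled with 1 size factor for each library, and not absolute amounts per lung. What lies behind the negative r with lung epithelium was not tested. Upk1b had its highest r with 9 cardiomyocyte markers (0.695, adjusted permutation p = 0.0827), and those of Wt1, Upk3b and Lrrn4 with these markers were 0.203, 0.35 and 0.106.

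The 5 genes outside the list whose deviations were most like the mean of the members, among 13973 compared, were Cpz (r = 0.927), Tmem108 (0.922), Bnc1 (0.917), Crb2 (0.888) and Gata4 (0.886). That mean is of the 6 members tested in all 3 tables. With the mean of the other members, Upk3b had r = 0.938, Wt1 0.821 and Lrrn4 0.649, against 0.213 for Upk1b, -0.022 for Krt19 and -0.331 for Aldh1a1. The 5 genes were picked in the same 18 libraries in which their fold changes are given. Cpz encodes a carboxypeptidase with a Wnt-binding domain, Bnc1 the zinc finger protein basonuclin 1, Crb2 a polarity protein and Gata4 a transcription factor. Tmem108 encodes a transmembrane protein. All 5 had lower means in Sox9 mutants, with log2 fold changes from -0.51 for Bnc1 to -0.20 for Cpz. In the Vangl experiment all 5 had higher means, from 0.37 for Gata4 to 0.96 for Crb2. Their Dermo1 log2 fold changes were -0.42 for Gata4, -0.31 for Cpz, -0.09 for Crb2, -0.02 for Bnc1 and 0.055 for Tmem108. None passed the adjusted threshold in limma.

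Upk3b and Lrrn4 varied together and Aldh1a1 did not, so the sequence before their start sites was compared. Each run shows the 250 bases before a RefSeq start in GRCm38.p6, read 5′ to 3′ on the gene's strand, with matches to GGAATG, the letters bound by TEAD factors of the Hippo pathway, in capitals on either strand (CATTCC is its reverse complement). The windows are chr5:136038246-136038495 (plus), chr2:132880863-132881112 (minus) and chr19:20492333-20492582 (plus). The table used matched 3 of the 7 members by symbol, Upk3b, Lrrn4 and Aldh1a1; Wt1, Upk1b, Msln and Krt19 had no entry.
Upk3b: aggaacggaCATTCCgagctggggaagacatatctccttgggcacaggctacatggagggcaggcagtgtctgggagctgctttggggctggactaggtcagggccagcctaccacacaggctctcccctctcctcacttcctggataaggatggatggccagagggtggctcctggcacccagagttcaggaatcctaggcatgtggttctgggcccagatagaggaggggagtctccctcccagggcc
Lrrn4: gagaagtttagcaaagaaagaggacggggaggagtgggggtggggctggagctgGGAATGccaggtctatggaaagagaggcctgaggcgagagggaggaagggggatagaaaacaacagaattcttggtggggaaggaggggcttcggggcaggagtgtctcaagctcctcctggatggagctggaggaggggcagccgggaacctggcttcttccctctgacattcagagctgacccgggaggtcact
Aldh1a1: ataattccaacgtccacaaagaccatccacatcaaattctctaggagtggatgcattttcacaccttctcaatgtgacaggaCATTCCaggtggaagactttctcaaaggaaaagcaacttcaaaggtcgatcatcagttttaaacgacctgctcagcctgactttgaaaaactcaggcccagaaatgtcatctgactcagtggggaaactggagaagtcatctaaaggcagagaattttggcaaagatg
All 3 windows held GGAATG, at 241 bases before the start in Upk3b (opposite strand), 196 in Lrrn4 (same strand) and 168 in Aldh1a1 (opposite strand), while a second Aldh1a1 start had no match. Of 32851 windows of the same length, 12.6% held these letters on either strand. The WT1 element core GTGGGAG (8.25% of windows), the letters GCGNGGGCG shared by EGR and WT1 (4.7%) and TATAAA (12.4%) were in none of the member windows. GC content was 60.8% for Upk3b, 59.2% for Lrrn4 and 42.8% for Aldh1a1, beside a median of 52.4% over all windows. A match of letters is a description and not a bound site, and the one searched motif that matched was in the window of Aldh1a1 too.

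A wider list of 16 mesothelial genes was examined beside the members. Of these, 15 were listed, and 13 were tested in each experiment. Dmkn and Slpi, the other 2, held under 6 normalized counts in every library. In Sox9 mutants 10 of 13 were lower and 3 higher, 6 had an unadjusted p under 0.05, all lower (2.81% of all genes), and the median log2 fold change was -0.17. The 6 became 3 without control replicate 1, control replicate 3 or mutant replicate 3, with medians of -0.09, -0.17 and -0.11, and 4 with total-count scaling. Gpm6a, a membrane glycoprotein, was at 589, 435 and 564 normalized counts in Sox9 controls and at 341, 380 and 397 in mutants. Its log2 fold change was -0.50 ± 0.121 (SE, limma adjusted p = 1). Tbx18, a transcription factor also made in the epicardium, was at 330, 224 and 332 in controls and at 155, 200 and 93.3 in mutants, a log2 fold change of -1.02 ± 0.269 (SE, limma adjusted p = 1). Bnc1 was at 293, 251 and 334 in controls and at 206, 239 and 173 in mutants (-0.51 ± 0.145 SE, limma adjusted p = 1). These 3 genes, with the lowest p-values of the list, did not overlap between groups. Ezr and Cdh3, also lower in mutants, did not either, and the rest of the 13 did. Of all genes tested, 8.78% did not overlap in either direction and 4.36% in that direction. Calb2 and Podxl, by contrast, had log2 fold changes of 0.02 and -0.01. The summed level of the list was between 11675 and 12592 in Sox9 controls and between 10951 and 11642 in mutants.

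In the Vangl experiment 11 of 13 were higher in mutants and 2 lower, and 3 higher and 1 lower had an unadjusted p under 0.05 (12.0% and 8.56% of all genes), with a median log2 fold change of 0.17. Podxl, which encodes the sialomucin podocalyxin, was at 2806, 4298 and 2266 in controls and at 4627, 5620 and 4679 in mutants (0.72 ± 0.216 SE, limma adjusted p = 0.233). Endothelium also makes it. Gpm6a was at 324, 408 and 277 in controls and at 425, 588 and 436 in mutants (0.52 ± 0.182 SE, adjusted p = 0.233 by limma). Nkain4 went the other way, from 1089, 869 and 1155 in controls to 786, 809 and 692 in mutants (-0.44 ± 0.131 SE, adjusted p = 0.233 by limma). Without control replicate 2, 5 of the 13 passed the adjusted threshold, beside 6183 of 14303 genes tested. Without control replicate 1, control replicate 3 or mutant replicate 2, 1 was higher and 1 lower at an unadjusted p under 0.05. With a trend on exon length removed, 5 were higher and 0 lower at that threshold, with a median of 0.302. In that fit 2021 of 14303 genes had such a p in either direction. The counts were 9 and 0 once replicate number was added to it, where 2413 genes had such a p. In the Dermo1 experiment 8 were higher and 5 lower, with 2 in each direction at an unadjusted p under 0.05 (5.42% of all genes higher and 4.76% lower) and a median of 0.10. Cldn15, a tight junction protein, was higher (0.32 ± 0.114 SE, adjusted p = 0.416 by limma), and the cadherin Cdh3 and the membrane linker Ezr, which epithelium also makes, were lower (-0.21 ± 0.049 and -0.14 ± 0.053 SE, adjusted p = 0.224 and 0.427 by limma). No gene of the list passed the adjusted threshold in any of these fits over all 6 libraries.

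**Figure D4:**
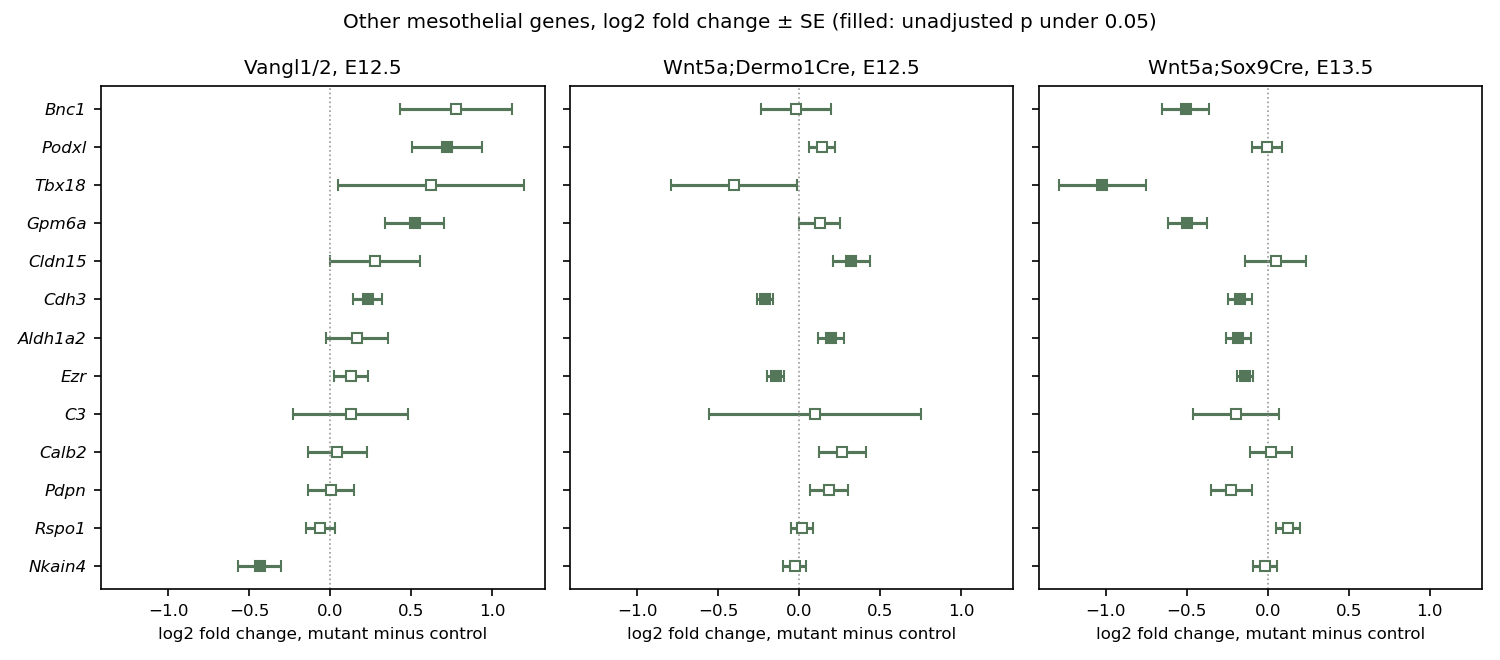
Log2 fold change ± SE (horizontal axis, mutant minus control) of 13 other mesothelial genes in the Vangl, Dermo1 and Sox9 experiments, in the order of the Vangl values. Filled squares have an unadjusted p under 0.05, which 4, 4 and 6 genes reached, and Bnc1, Tbx18 and Gpm6a lie to the right of 0 in Vangl and to the left in Sox9.

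The genes around each member were counted in the same way. Of the keratins of simple epithelia beside Krt19 (Krt7, Krt8, Krt18 and Krt20), 0 of 4 had an unadjusted p under 0.05 in the Vangl and the Sox9 experiments, and 1 of 3 in the Dermo1 experiment, Krt18 (-0.20 ± 0.065 SE, adjusted p = 0.375 by limma). All 3 tested there had lower means, as Krt19 had, with -0.08 for Krt8 and -0.11 for Krt7. In the Vangl experiment Krt8, Krt18 and Krt7 were at -0.20, -0.21 and -0.11, and in the Sox9 experiment at 0.00, -0.03 and -0.02. The uroplakins Upk1a, Upk2 and Upk3a were too low to be tested, with a summed level of at most 19 normalized counts in any library, so that Upk3b and Upk1b were the uroplakins detected among these 5.

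Beside Aldh1a1, 12 of 13 other genes of retinoic acid metabolism and response were tested. In the Vangl experiment 2 were higher and 2 lower at an unadjusted p under 0.05, beside 12.0% of all genes higher and 8.56% lower, among them the retinoic acid binding protein Crabp1 (-1.62 ± 0.403 SE) and the degrading enzyme Cyp26b1 (0.72 ± 0.255 SE), each with an adjusted p of 0.233 by limma. Aldh1a2, the main retinoic acid enzyme of the embryonic mesothelium and also in the mesenchyme, was at 1569 to 1778 normalized counts in Dermo1 controls and at 1661 to 2055 in mutants (0.20 ± 0.082 SE, adjusted p = 0.473 by limma). In the Sox9 experiment it was at 1730 to 1978 in controls and 1502 to 1775 in mutants (-0.18 ± 0.077 SE, adjusted p = 1 by limma), and was the 1 gene of the list with an unadjusted p under 0.05. The signal Fgf9, made by mesothelium and epithelium, had means of 166 and 263 in Vangl controls and mutants (0.66 ± 0.21 SE, adjusted p = 0.233 by limma) and of 164 and 207 in the Dermo1 experiment (0.34 ± 0.112 SE, adjusted p = 0.391 by limma). In the Sox9 experiment Fgf9 had means of 193 and 187 (-0.04 ± 0.1 SE), and 0 of 9 genes of the signal and its readouts had an unadjusted p under 0.05.

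Of 13 genes of epithelial-mesenchymal transition, 4 had an unadjusted p under 0.05 in the Vangl experiment, all higher in mutants, beside 20.5% of all genes in either direction and 12.0% higher. They were led by Tgfb2 (0.39 ± 0.12 SE), Zeb2 (0.44 ± 0.144 SE) and Tgfbr1 (0.32 ± 0.116 SE), each with an adjusted p of 0.233 by limma. In the Sox9 experiment the count was 0, and 10 of 13 were lower with a median of -0.05. In the Dermo1 experiment 2 were lower at that threshold, as 4.76% of all genes were, Tgfb1 (-0.21 ± 0.07 SE) and Cdh1 (-0.10 ± 0.042 SE), with adjusted p-values of 0.399 and 0.46 by limma. Mesenchyme and epithelium make most of these genes as well.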

How the data were processed

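RNA from whole embryonic mouse lungs was sequenced on Illumina instruments. The submitters' processing notes name Trim Galore, HISAT2, featureCounts, DESeq2 and the mm10 build, without settings, and strand handling is not given in the sources used here. The authors divided gene counts by a size factor and deposited the result, a signal. Values are whole multiples of 1 step per library (largest deviation 4.7e-05 reads), and the read numbers given here were recovered from these steps. For 11 of 18 libraries the step was too close to 1 to be accepted as reads by the check used, so that their read numbers are less certain. Columns of means, log2 fold changes and p-values from the authors' own comparison were deposited too and were not used. Each table was normalized by itself.

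The members, gene lists and tests were chosen with earlier results of these data known. Differences were tested with limma (3.58.1, R 4.3.3, mean-variance trend) on log2(normalized count + 1) for genes with at least 10 normalized counts in 3 of 6 libraries, and differences between experiments in a fit of all 18. Tested genes numbered 14303 (Vangl), 14277 (Dermo1), 14293 (Sox9) and 13979 in all 3 tables. The procedure was run on simulated counts, drawn independently for each library with a common dispersion in each table. The simulated libraries held no shift such as that seen among the Vangl controls, so that case was not tested. Correlations used deviations from group means, with exact permutation over the 46656 orders of libraries within groups, a test added after the data were seen. An exact permutation test of a single gene cannot go below 0.1 with 3 libraries a group. Genes named beside the members are the targeted genes, genes among the 3 with the lowest p-value per list and experiment in 6 lists, and the 5 genes most like the members. A gene that the rule picked is not reported here. Other genes named, and values of a named gene in a further experiment, were chosen after their values were seen. Coordinates are from GENCODE M21 and promoters from RefSeq, both of the build of the files. Replicate numbers were not taken to pair libraries in the main fits. Alternatives changed the pseudocount, the filter, the scaling, a trend on exon length, the test and the libraries. edgeR (4.0.16) and DESeq2 (1.42.0) were run on 5 Vangl libraries, and this and total-count scaling were added after the data were seen.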

Additional observations from a re-analysis of the deposited data

Results flagged for a closer look

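Wt1, Upk3b and Lrrn4 had mutant effects of opposite direction in the Vangl and Sox9 experiments. In the Vangl experiment all 3 mutants lay above the control mean, and in the Sox9 experiment all 3 lay below it, for each gene. The difference of the log2 fold changes was 1.151 for Wt1 (means 559 and 880 normalized counts in Vangl controls and mutants, 752 and 536 in Sox9), 0.848 for Upk3b (1532 and 2182, 1611 and 1268) and 1.577 for Lrrn4 (410 and 803, 641 and 446). In the limma fit of the difference itself the adjusted p was 0.157 for each, so that the difference did not pass the threshold in the fit over all libraries. Vangl control replicate 2 had the highest Wt1, Upk3b and Lrrn4 of its group, and without it the adjusted p-values were 0.00235, 0.00754 and 0.000355 in limma. That fit called 5500 of 13979 genes. The cause was not tested.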

How the results depend on the processing

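In the Vangl experiment the number of genes called, 1 in the limma fit over 6 libraries, was 0 with a replicate block (3010 genes at an unadjusted p under 0.05, against 2938 without it), 0 with total-count scaling (2910), 0 with edgeR (1370) and 7 with DESeq2 (1675) on the 5 libraries whose steps gave reads, and 0 to 6183 with each library left out, the highest without control replicate 2. Members called there went from 0 to 3 when each library was left out, the 3 being called without control replicate 2. In the Dermo1 experiment the replicate block called 16 genes where the fit without it called 2, and leaving out libraries gave 0 to 54 (54 without mutant replicate 1). In the Sox9 experiment 0 genes were called in limma (557 at an unadjusted p under 0.05) and 0 with the replicate block (761), and leaving out libraries gave 0 to 13 (13 without mutant replicate 1). With the replicate block no member was called in any experiment. Over all genes tested, same-numbered libraries did not deviate together (correlations between -0.223 and 0.303). In the Vangl experiment Wt1, Upk3b and Lrrn4 did, lowest in replicate 3 and highest in replicate 2 of both groups. With the block their unadjusted limma p-values there were 0.00101, 0.00309 and 0.00016, against 0.0281, 0.0538 and 0.0271 without it. Each had an adjusted p of 0.214 with the block. For the differences between experiments, leaving out libraries gave 0 to 18 genes for Dermo1 against Sox9 (18 without Sox9 mutant replicate 1), 1 to 4579 for Vangl against Dermo1 and 1 to 5500 for Vangl against Sox9 (both highest without Vangl control replicate 2), and total-count scaling gave 1 in each of the latter.

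The sign changed for members near 0. Removing the trend on exon length brought Krt19 in the Vangl experiment to 0.16, with and without the replicate block, and Lrrn4 in the Dermo1 experiment to 0.008, as total-count scaling did (0.008). Aldh1a1 in Vangl against Sox9 was 0.005 with total-count scaling. With libraries left out, the log2 fold changes ranged in Dermo1 from -0.103 to 0.159 for Upk3b, -0.155 to 0.182 for Lrrn4 and -0.119 to 0.179 for Upk1b. In Sox9 they ranged from -0.032 to 0.045 for Krt19, -0.183 to 0.037 for Aldh1a1 and -0.245 to 0.329 for Upk1b. The differences of Aldh1a1 ranged from -0.289 to 0.015 (Dermo1 against Sox9), -0.049 to 0.254 (Vangl against Dermo1) and -0.133 to 0.087 (Vangl against Sox9), and that of Upk1b from -0.274 to 0.3 (Dermo1 against Sox9). The ratio of the highest to the lowest group mean was 1.32 for Krt19 and 1.44 for Aldh1a1 in normalized counts, against 1.17 and 1.71 in CPM. The causes were not tested. Wt1, Upk3b and Lrrn4 kept their direction in the Vangl and Sox9 experiments under every setting run (17 and 14 fits). Other members did so too: Upk1b (higher) and Aldh1a1 (lower) in Vangl, Msln (lower, 13 fits) in Sox9, and Wt1 (higher), Krt19 and Aldh1a1 (lower) in the 14 Dermo1 fits. The fits share libraries, so that a kept direction is not independent evidence. The median r over the pairs of members was 0.115, and 0.095 without the Vangl controls. The planned TMM scaling, and edgeR and DESeq2 on whole tables, were not run, because the steps of 11 of 18 libraries were too close to 1 to be accepted as reads. At the depth reached, Msln held too few counts to be tested in the Vangl and Dermo1 experiments.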
